A study of Mus musculus with 8 samples.

Results

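The fibroblast growth factor (FGF) receptors Fgfr1, Fgfr2, Fgfr3 and Fgfr4 and the ligands Fgf2, Fgf7, Fgf8, Fgf10 and Fgf18 were followed through the first day of micromass culture of mouse CH310T1/2 cells carrying an Erg plasmid or a control plasmid. The members were the 18 probe sets whose gene symbol on the array is one of these 9 names, of 45037 probe sets on the array. There were 12 probe sets for the 4 receptors and 6 for the 5 ligands, and the 9 genes are among 20680 symbols that the array lists alone on a probe set. Members were taken by gene name, but with earlier results of these data known, so the choice was not blind to the values.

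All 8 samples were CH310T1/2 cells, in the spelling of the labels, which were electroporated with a plasmid and grown in micromass, a high-density drop culture. Total RNA was hybridised to Affymetrix Mouse Genome 430 2.0 arrays, 1 array a sample, in 4 groups of 2. The control groups carried a control plasmid and were sampled on day 0 and on day 1. The Erg groups carried the Erg form named Erg-010, behind the CMV promoter on day 0 and behind the Col2 promoter on day 1, so among the Erg cultures the day and the promoter cannot be told apart. Erg is a transcription factor of the ETS family. CMV is a viral promoter active in most cells, and Col2 is the promoter of a collagen gene of cartilage. The labels do not name the promoter of the control plasmid. They number 2 repeats in each group and leave unsaid whether these were grown separately, so p-values measure only the spread between arrays, which may be technical. The array numbers in the labels run from 1 to 4 on day 0 and from 5 to 8 on day 1, so a day cannot be told apart from a set of arrays.

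FGFs are secreted proteins that bind receptor tyrosine kinases together with heparan sulfate on the cell surface, and the paired receptors phosphorylate the docking protein Frs2, which passes the signal to Ras and the ERK kinases. In the developing limb Fgf10 is made by mesenchyme and signals to the ectoderm, while Fgf8 is made by the ectodermal ridge and signals back. Fgfr1 and Fgfr2 mark limb mesenchyme and condensing cells, and Fgfr3 is the receptor of chondrocytes, where its signal, with Fgf18 as a main ligand, slows their division. Fgf7 is a mesenchymal ligand for the epithelial form of Fgfr2, Fgf2 is a broadly acting ligand without a classical signal peptide, and Fgfr4 is best known from liver and muscle.

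The middle of each array lay between 6.59 and 6.70 on the log2 scale (array medians), and the arrays' number limits the precision of every value. The 2 Erg arrays of day 0 differed most from each other. The SD over probe sets of the difference between the 2 arrays was 0.61 in that group. It was 0.26 in control day 0, 0.34 in control day 1 and 0.23 in Erg day 1. The 2 Erg probe sets were not higher in the Erg arrays: 1440244_at differed from control by -1.26 on day 0 and -0.36 on day 1, and 1425370_a_at by -0.14 and -0.09, all in log2 with adjusted p of at least 0.802 (limma). Whether these probe sets read the plasmid's transcript was not tested, so the Erg groups are named by their labels. All 12 mesenchymal markers measured were above the first quartile of every array, with group medians of 12.48 to 13.35. Of the 11 chondrocyte markers, Matn1 and Hapln1 were below the first quartile on all 8 arrays. The same held for Cdh1 among 8 epithelial, Tie1 among 6 endothelial, and Ptprc and Itgam among 6 leukocyte markers.

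The first question was how the members differed between day 0 and day 1 in cultures that carried no Erg plasmid. They were not shown to be without Erg, since the Erg probe set 1440244_at read 7.30 and 7.61 in control day 0 and 8.43 and 8.5 in control day 1, above the array medians. In the control cultures 3 of the 4 receptors rose and 2 of the 5 ligands fell over the day: Fgfr3 4.10-fold and Fgfr2 3.91-fold higher, Fgfr1 1.78-fold higher, Fgf2 2.13-fold lower and Fgf8 2.04-fold lower, each by its probe set with the highest mean. Fgfr4, Fgf7, Fgf10 and Fgf18 had no probe set past the threshold, an adjusted p under 0.05 from limma over all probe sets. In all, 7 of 18 member probe sets passed, 5 higher and 2 lower, against 19.8% of all probe sets (11.8% higher and 7.97% lower). The median difference was -0.27 over the members and -0.11 over all probe sets, in log2. The arrays of the 2 days did not overlap for 16 member probe sets, 5 higher and 11 lower on day 1, and for 72.8% of all probe sets (28.7% higher and 44% lower), so separation alone was common here. The count of 7 depended on single arrays: it was 2 and 1 without the first and the second control array of day 0, 3 without either control array of day 1, 5 without either Erg array of day 1, and 11 without either Erg array of day 0. The share of all probe sets called in these refits is not given here. Counts without single arrays, here and below, therefore describe the members only. In whole cultures fewer cells of a type and less RNA per cell cannot be told apart.

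Fgfr3, the receptor of chondrocytes, had 2 probe sets that disagreed. On 1421841_at the control arrays read 7.56 and 7.59 on day 0, then 9.60 and 9.62 a day later, and the Erg arrays 7.68 and 7.65, then 9.82 and 9.58, in log2 intensity. All 4 arrays of day 1 lay clear of all 4 of day 0, by far more than the gaps between arrays of a group. The day difference was 2.04 ± 0.13 (SE) in the controls (adjusted p = 0.00157, limma, 2 arrays against 2) and 2.04 ± 0.13 in the Erg cultures (adjusted p = 0.00167). It passed in the controls without any single array, with adjusted p of 0.033 at most. The order of the groups was control day 0, Erg day 0, control day 1, Erg day 1, in which both neighbouring control and Erg groups differed by 0.09 ± 0.13 and did not pass. The other probe set, 1425796_a_at, read 6.85 and 6.97 in the controls of day 0 and 6.62 and 6.65 on day 1, and 6.78, 6.73, 6.46 and 6.69 in the Erg arrays in the same order of days. Its control difference was -0.27 ± 0.13 with an adjusted p of 0.170, so the 2 probe sets moved by unlike amounts on the same RNA. Both are aligned to chromosome 5 on the plus strand, 1421841_at from 34064322 to 34079716 and 1425796_a_at from 34065046 to 34078256, and both list the same 4 RefSeq transcripts, with 10 and 11 matching probes. The array annotation does not state the build of these positions.

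Fgfr2, which in its mesenchymal and epithelial splice forms binds different ligands, rose on both of its probe sets. On 1433489_s_at the control arrays read 8.18 and 8.37 on day 0, then 10.24 and 10.24 a day later. The Erg arrays read 9.22 and 7.78, then 10.35 and 10.19. The 2 Erg arrays of day 0 thus lay on either side of the controls, the widest gap within any group for this gene, and all arrays of day 1 were above all arrays of day 0. The day difference was 1.97 ± 0.41 in the controls (adjusted p = 0.022, limma) and 1.77 ± 0.41 in the Erg cultures (adjusted p = 0.052), which did not pass. On 1420847_a_at the controls read 6.31 and 5.95, then 7.70 and 7.26, and the Erg arrays 6.93 and 6.07, then 7.67 and 7.36. These differences were 1.35 ± 0.31 (adjusted p = 0.029) and 1.02 ± 0.31 (adjusted p = 0.107). Leaving out any 1 control array ended the control call of 1433489_s_at, with adjusted p of 0.086 to 0.119, and leaving out any array other than the Erg arrays of day 0 ended that of 1420847_a_at, with 0.057 to 0.174. Without the second Erg array of day 0, the Erg difference of 1433489_s_at was 1.05, and without the first it was 2.49. The 2 probe sets list the transcripts of both splice forms, so they do not tell the forms apart.

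Fgfr1, an FGF receptor of limb mesenchyme, rose on 2 of its 3 probe sets. On 1424050_s_at the controls read 9.67 and 9.56 on day 0, then 10.62 and 10.27 a day later, and the Erg arrays 9.95 and 10.18, then 10.69 and 10.58. The groups stood in the order control day 0, Erg day 0, control day 1, Erg day 1, without overlap between the days. Its control day difference was 0.83 ± 0.16 (adjusted p = 0.018, limma). On 1436551_at the controls read 7.0 and 6.85, then 7.68 and 7.54, and the Erg arrays 7.22 and 7.66, then 7.99 and 8.08. Here the second Erg array of day 0 lay between the controls of day 1, and the control difference was 0.68 ± 0.17 (adjusted p = 0.036, limma). In the Erg cultures these probe sets differed over the day by 0.57 ± 0.16 and 0.59 ± 0.17, with adjusted p of 0.087 and 0.093. The third, 1425911_a_at, read 6.59 and 6.51, then 6.93 and 6.27 in the controls and 6.81 and 6.46, then 6.99 and 6.99 in the Erg arrays. Its control arrays of day 1 lay on either side of those of day 0, and its difference of 0.05 ± 0.23 (adjusted p = 0.894) turned to -0.28 without the first control array of day 1. The call for 1424050_s_at was lost without either control array of day 0 or without the first of day 1 (adjusted p of 0.071 to 0.125), and that for 1436551_at without any array but the Erg arrays of day 0 (0.076 to 0.193).

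Fgfr4 had 5 probe sets and none passed. Of these, 1427846_x_at, 1427777_x_at, 1427845_at and 1427776_a_at are placed on the same 327 bases of chromosome 13, from 55269166 to 55269492, and are not independent readings. Among them, 1427845_at is aligned to the minus strand and the others to the plus strand. The array annotation counts 0 probes matching the listed RefSeq transcript for 1427846_x_at, 1427777_x_at and 1427845_at, and 11 for 1427776_a_at and 1418596_at. By its mean 1427846_x_at stands for Fgfr4 where genes are counted. The fifth, 1418596_at, spans the gene from 55254051 to 55270101. Over the 8 arrays 1427846_x_at ranged over 0.35, 1427777_x_at over 0.64, 1418596_at over 0.46 and 1427776_a_at over 0.46 log2 units. The widest range, 0.90, was that of 1427845_at, which read 6.89 and 7.19 in the controls of day 0, 6.65 and 6.34 in Erg day 0, 6.57 and 6.30 in control day 1, and 6.46 and 6.37 in Erg day 1. Only its control arrays of day 0 stood above the rest. All 5 control differences were below 0, from -0.61 ± 0.18 for 1427845_at (adjusted p = 0.054, limma) to -0.26 ± 0.16 for 1418596_at (adjusted p = 0.264). Leaving out either Erg array of day 0 gave 1427845_at an adjusted p of 0.023. On all 8 arrays 1427776_a_at was below the first quartile, with values from 3.31 to 3.77.

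**Figure D1:**
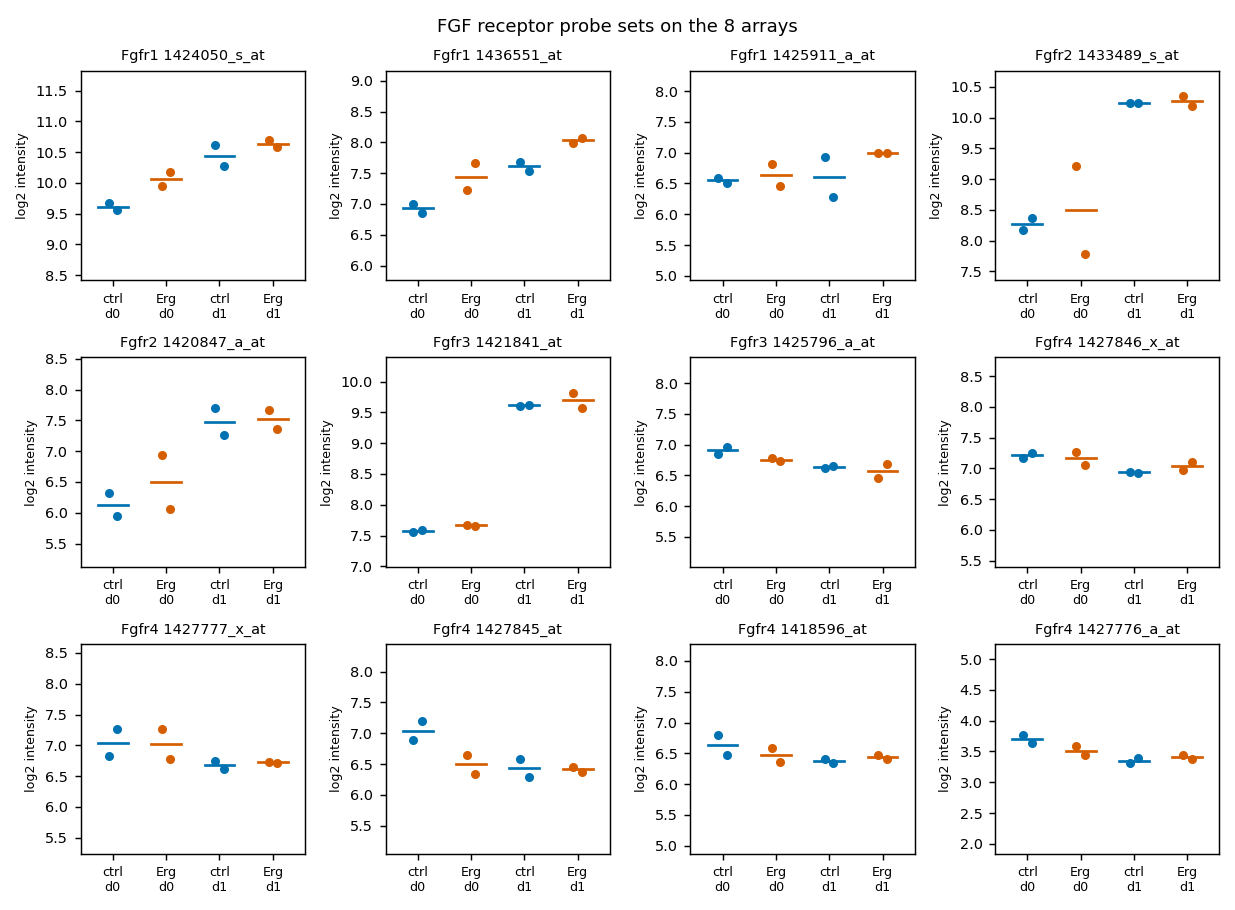
Log2 intensity (vertical axis, every panel spanning the same number of units) of the 12 FGF receptor probe sets in the 4 groups, with points for single arrays and lines for the means of 2 arrays. Fgfr3 1421841_at lay between 7.56 and 7.68 on day 0 and between 9.58 and 9.82 on day 1, while 1425796_a_at of the same gene stayed between 6.46 and 6.97.

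The sequences before the start sites of Fgfr2 and Fgfr3, the receptors with the largest day differences, are shown because Erg is an ETS factor and ETS proteins bind sites built around GGAA. The RefSeq promoter table of GRCm38.p6 held windows for 7 of the 9 genes, 8 windows in all, with none for Fgfr1 and Fgf8. In the 250 bases before each start, CCGGAA and AGGAAG were searched on both strands, 2 motifs that overlap in their GGAA core. Capitals mark a match, and both sequences are written 5′ to 3′ on the strand of the gene.
Fgfr2, chr7:130266809-130267058, minus strand: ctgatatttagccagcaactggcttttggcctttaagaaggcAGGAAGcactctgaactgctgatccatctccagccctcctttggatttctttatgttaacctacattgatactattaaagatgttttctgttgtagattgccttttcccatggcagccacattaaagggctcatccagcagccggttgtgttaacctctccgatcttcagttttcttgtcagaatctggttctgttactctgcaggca
Fgfr3, chr5:33721474-33721723, plus strand: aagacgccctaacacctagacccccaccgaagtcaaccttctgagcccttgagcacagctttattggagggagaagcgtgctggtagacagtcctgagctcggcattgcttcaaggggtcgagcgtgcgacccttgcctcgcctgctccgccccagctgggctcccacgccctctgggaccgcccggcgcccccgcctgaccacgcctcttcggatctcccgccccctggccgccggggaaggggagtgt
The Fgfr2 window held AGGAAG with its first base at -208 from the start, and the Fgfr3 window held no match. Of the other windows, the Fgfr4 window held CCGGAA at -178 and AGGAAG at -238, and those of Fgf2, Fgf7, Fgf10, Fgf18 and the second Fgfr3 start held neither. So 2 of 8 windows had a match, against 38.2% of 32851 windows of the same length (12% with CCGGAA and 29.5% with AGGAAG). A match is a run of letters and shows no binding, and a missing one says only that these letters are not in the window.

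Among the ligands, Fgf2 fell over the day. The arrays read 6.24 and 5.98 in control day 0, 6.36 and 5.99 in Erg day 0, 5.18 and 4.85 in control day 1, and 5.31 and 5.01 in Erg day 1. Control and Erg arrays overlapped on each day, and no array of day 1 reached those of day 0. In the controls Fgf2 fell by 1.09 ± 0.20 on the log2 scale (adjusted p = 0.016, limma), and in the Erg cultures by 1.02 ± 0.20 (adjusted p = 0.036). The control call was lost without either control array of day 0 or the second of day 1, with adjusted p of 0.083 to 0.096. The Erg call was lost without either control array of day 0 (0.081) or without either Erg array of day 1 (0.113 and 0.251). The probe set 1449826_a_at was below the median of every array and below the first quartile on 3, so the change was read at low intensity.

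Fgf8, in the embryo a ligand of the ectodermal ridge, read 6.05 and 6.06 in control day 0, 5.77 and 5.63 in Erg day 0, 5.07 and 4.98 in control day 1, and 5.34 and 5.37 in Erg day 1. The 4 groups did not overlap, in the order control day 0, Erg day 0, Erg day 1, control day 1. Fgf8 fell by 1.03 ± 0.12 in the controls (adjusted p = 0.0047, limma), while the Erg difference of -0.34 ± 0.12 did not pass (adjusted p = 0.133). Without the second control array of day 0 the control call was just lost (adjusted p = 0.057). The probe set 1451882_a_at was below the median on all 8 arrays and below the first quartile on 2. Among 18639 probe sets below the median on all 8 arrays, the median control day difference was -0.18 and 7.19% were called lower. Among the other 26398 the median was 0.01 and 8.52% were called lower.

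Fgf7, the mesenchymal ligand of the epithelial Fgfr2 form, was lower on day 1 in the controls without passing the test. On 1438405_at the controls read 13.00 and 13.19, then 12.17 and 12.23, and the Erg arrays 13.34 and 12.37, then 12.36 and 12.08. On 1422243_at they read 12.02 and 12.11, then 10.91 and 10.82, and 12.31 and 11.01, then 10.98 and 10.60. In both, the control arrays of the 2 days were well apart, and the second Erg array of day 0 sat near the arrays of day 1. The control differences were -0.90 ± 0.30 (adjusted p = 0.077, limma) and -1.20 ± 0.38 (adjusted p = 0.070), and the Erg differences -0.63 ± 0.30 (adjusted p = 0.243) and -0.87 ± 0.38 (adjusted p = 0.217). Without the second Erg array of day 0, both passed in the controls (adjusted p = 0.0045 and 0.0022) and in the Erg cultures, at -1.12 (adjusted p = 0.014) and -1.52 (adjusted p = 0.0070). Without the first Erg array of day 0, both control differences passed with the same values, and the Erg differences did not (adjusted p = 0.614 and 0.461).

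Fgf10, the limb mesenchyme's signal to the ectoderm, read 7.82 and 8.12 in control day 0, 8.30 and 7.39 in Erg day 0, 7.58 and 7.20 in control day 1, and 7.54 and 7.69 in Erg day 1. The control days did not overlap, and the 2 Erg arrays of day 0 spanned all other arrays but the second control of day 1. The differences were -0.58 ± 0.30 in the controls (adjusted p = 0.206, limma) and -0.23 ± 0.30 in the Erg cultures (adjusted p = 0.672). Fgf18, a ligand of Fgfr3 in cartilage, read 5.98 and 6.33, 6.66 and 6.29, 6.56 and 6.25, and 6.58 and 6.39 in the same group order, all below the array medians. Its groups overlapped, with a control difference of 0.25 ± 0.20 (95% interval -0.23 to 0.73, adjusted p = 0.400) and an Erg difference of 0.01 ± 0.20 (-0.47 to 0.49, adjusted p = 0.983).

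**Figure D2:**
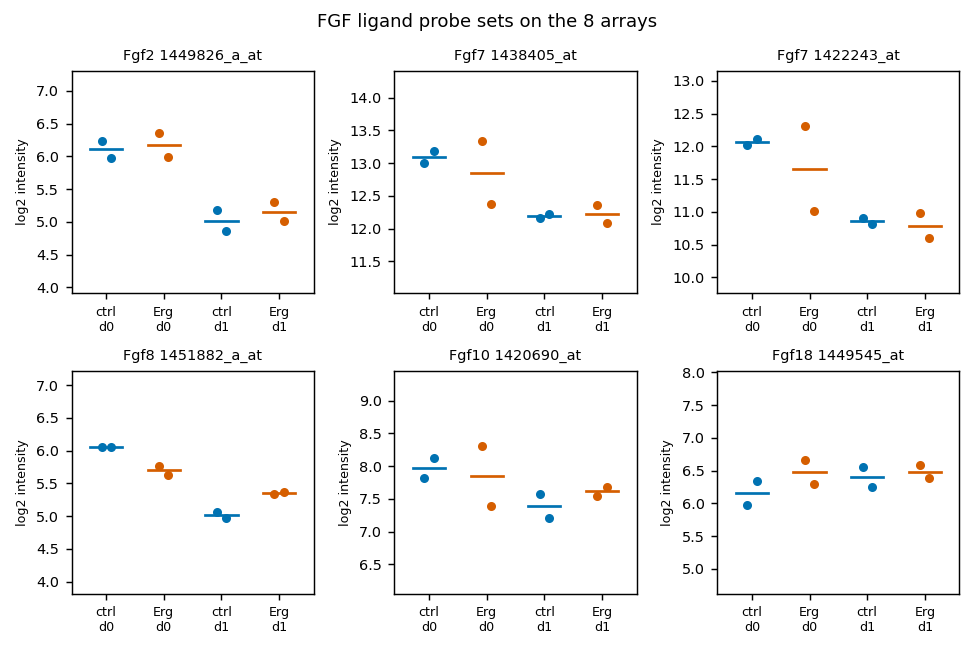
Log2 intensity (vertical axis, every panel spanning the same number of units) of the 6 FGF ligand probe sets in the 4 groups, with points for single arrays and lines for the means of 2 arrays. Fgf2 lay between 5.98 and 6.36 on day 0 and between 4.85 and 5.31 on day 1, and the 2 Erg arrays of day 0 lay far apart for Fgf7 and Fgf10.

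In the Erg cultures the same day difference passed for 2 of 18 member probe sets, Fgfr3 1421841_at higher and Fgf2 lower, against 6.99% of all probe sets (5.32% higher and 1.67% lower). The arrays of the 2 days did not overlap for 13 members, 6 higher and 7 lower, and for 55.3% of all probe sets (24.6% higher and 30.7% lower). The receptor differences had the sign of the control ones on all 12 probe sets, and so did those of the 6 ligand probe sets. That these differences passed in one plasmid and not in the other does not show that the plasmids differ, and the difference of the day effects is given with the Erg comparison. The count was 6 without the second Erg array of day 0 and 4 without the first, and 1 without any 1 control array of day 0 or Erg array of day 1.

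**Figure D3:**
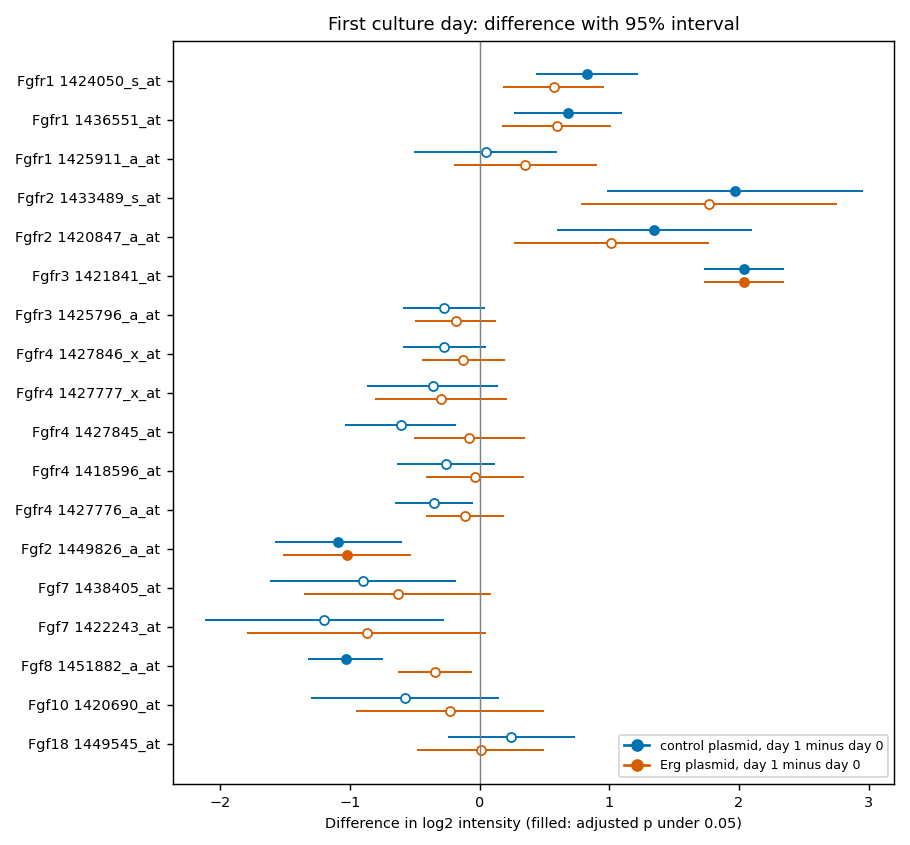
Difference in log2 intensity, day 1 minus day 0 (horizontal axis), of the 18 member probe sets in control and Erg cultures, with 95% intervals from limma and filled points for adjusted p under 0.05. In the controls 5 receptor points are filled to the right and those of Fgf2 and Fgf8 to the left, and in the Erg cultures those of Fgfr3 1421841_at and Fgf2.

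The study's other question was what the Erg plasmid changed within a day. None of the 18 member probe sets passed on day 0 or on day 1 (limma), and 0% of all 45037 passed on either day. At an unadjusted p under 0.05 (limma) there were 4 of the 18 members on day 0, beside 2444 of all 45037 probe sets. On day 1 there were 2 of the 18, beside 616 of all 45037. The 4 were Fgfr1 1424050_s_at with 0.45 ± 0.16, Fgfr1 1436551_at with 0.51 ± 0.17, Fgfr4 1427845_at with -0.55 ± 0.18 and Fgf8 with -0.35 ± 0.12. Each had an adjusted p of 0.802 (limma). The 2 on day 1 were Fgfr1 1436551_at with 0.42 ± 0.17 and Fgf8 with 0.33 ± 0.12, each with an adjusted p of 1. Erg arrays lay above both controls for 3 members and below them for 4 on day 0, against 31.2% of all probe sets (13.6% above and 17.6% below), and above for 4 and below for 0 on day 1, against 31.6% (19% above and 12.6% below). Of these, Fgfr1 1436551_at was above both controls on both days, and Fgfr1 1424050_s_at on day 0.

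For the receptor that moved most over the day, Fgfr3 1421841_at, the Erg difference was 0.09 on day 0 and 0.09 on day 1, each with a 95% interval of -0.21 to 0.39. For Fgf2 it was 0.07 (-0.41 to 0.55) and 0.14 (-0.35 to 0.62). The intervals of Fgfr2 1433489_s_at were wide, at 0.22 (-0.76 to 1.20) and 0.03 (-0.95 to 1.01), and so were those of Fgf7 1422243_at, at -0.40 (-1.31 to 0.51) and -0.08 (-0.99 to 0.84). Without the first Erg array of day 0, Fgfr1 1436551_at passed at 0.73 (adjusted p = 0.040) and Fgf7 1422243_at at -1.05 (adjusted p = 0.032). The second array then stands alone for its group, and its spread was assumed to be that of the other groups. The change of the Erg difference from day 0 to day 1 passed for none of the 18 and for 0% of all probe sets. At an unadjusted p under 0.05 there was 1 of the 18 members, beside 1100 of all 45037 probe sets. It was Fgf8, with 0.69 ± 0.17 (adjusted p = 0.974, limma).

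**Figure D4:**
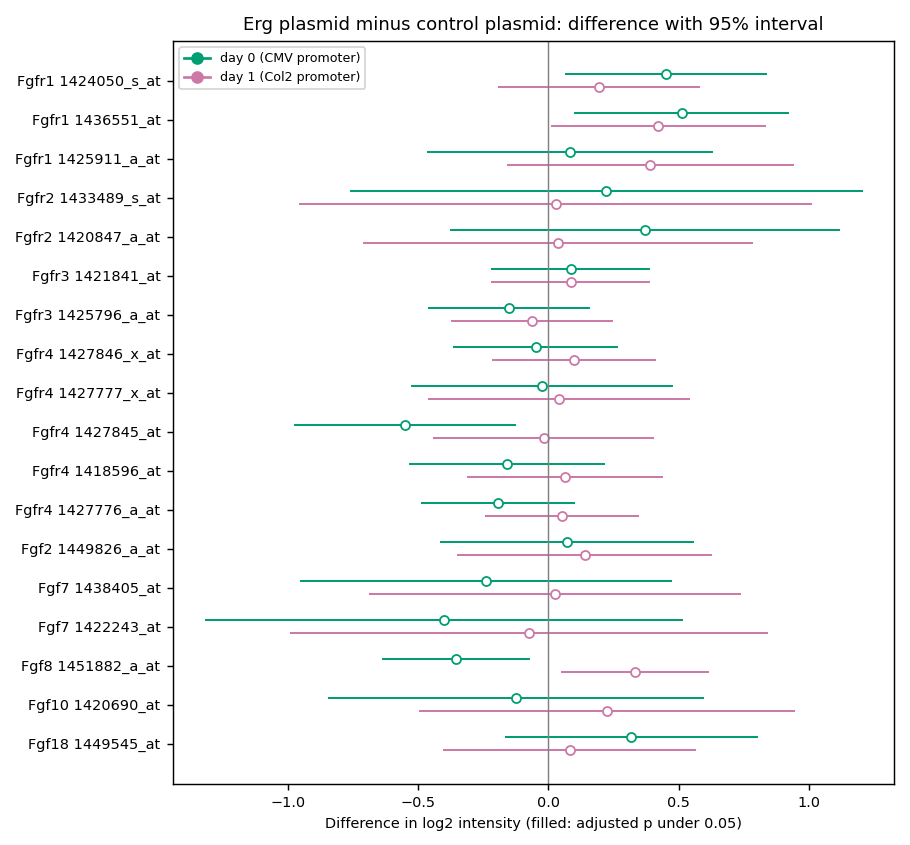
Difference in log2 intensity, Erg minus control plasmid (horizontal axis), of the 18 member probe sets on day 0 and day 1, with 95% intervals from limma. All points are open, since no adjusted p was under 0.05, and the intervals of Fgfr1 1436551_at and Fgf8 leave out 0 on both days, those of Fgf8 on opposite sides.

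Genes that act with the members were described by lists, each gene by its probe set with the highest mean. In the control day comparison 20.3% of all genes were called, 11% higher and 9.26% lower, with a median difference of -0.15. Over the Erg day 8.06% of genes were called, 6.18% higher and 1.88% lower. In the control day comparison 7656 of all 20680 genes had a positive difference. Of the 17 other genes listed as FGF ligands, 0 were higher and 5 lower there, with a median of -0.45 and no positive difference. The 5 were Fgf9 with -0.72 ± 0.13 (adjusted p = 0.014, limma), Fgf12 with -0.71 ± 0.16, Fgf5 with -0.71 ± 0.17, Fgf3 with -0.69 ± 0.15 and Fgf11 with -0.52 ± 0.14. Fgf9 is a secreted ligand with a role in limb growth, Fgf5 a secreted ligand that ends hair growth, Fgf3 a ligand of the early ear, and Fgf11 and Fgf12 stay inside the cell. Fgf9 read 7.40 and 7.56 in control day 0, 7.23 and 7.13 in Erg day 0, 6.80 and 6.72 in control day 1, and 6.78 and 6.96 in Erg day 1. The days did not overlap for it. Of these 17 genes 12 were below the median on all 8 arrays, and in the Erg cultures none passed over the day, with a median of -0.22. Leaving out 1 array at a time gave 0 to 10 lower calls.

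Heparan sulfate holds FGFs on the cell surface, and its sulfation sets which ones bind. Of 18 genes for its carriers and enzymes, 3 were higher and 3 lower in the control day comparison, with a median of -0.06. The extracellular sulfatases, which remove sulfate from the chains, were called in opposite directions. Sulf2 read 11.17 and 10.77 in control day 0 and 13.40 and 13.23 in control day 1, a rise of 2.34 ± 0.22 (adjusted p = 0.003, limma), on a probe set of the kind that may also bind related transcripts. Sulf1 read 10.38 and 10.65, then 8.67 and 7.92, and fell by 2.22 ± 0.55 (adjusted p = 0.034). Ndst1, which starts the sulfation of the chains, rose by 0.92 ± 0.13 (adjusted p = 0.008). Gpc3, a membrane-anchored carrier, fell by 0.55 ± 0.12 (adjusted p = 0.027). In the Erg cultures Sulf2 at 1.72 ± 0.22, Ndst1 at 0.77 ± 0.13 and the carrier Gpc6 at 2.53 ± 0.55 passed, and Sulf1 at -0.85 ± 0.55 did not (adjusted p = 0.376). Sulf1 read 10.35 and 8.64 in Erg day 0, so its 2 arrays differed there. Leaving out 1 array at a time gave 1 to 7 higher and 0 to 4 lower calls. Of 7 co-receptors and binding proteins only Flrt3, a membrane protein that associates with FGF receptors, was called in the controls, 1.33 ± 0.20 higher (adjusted p = 0.009), and again in the Erg cultures, at 0.93 ± 0.20 (adjusted p = 0.043). The control median of these 7 genes was -0.25 and ran from -0.38 to -0.03 over the arrays left out, and without the second control array of day 0 none was called.

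Of 17 receptor adaptors and signal carriers, 7 were higher and 0 lower in the control day comparison, with a median of 0.56. Gab1, a docking protein, read 8.71 and 8.39 in control day 0, 8.88 and 9.34 in Erg day 0, 10.07 and 9.91 in control day 1, and 10.24 and 10.10 in Erg day 1. It rose by 1.44 ± 0.20 (adjusted p = 0.007, limma), and all arrays of day 1 were above those of day 0. Cbl and Cblb, ubiquitin ligases that mark active receptors for degradation, rose by 1.27 ± 0.28 and 1.07 ± 0.14, and Sos1, which loads Ras with GTP, by 0.73 ± 0.13. The other 3 were Plcg1, Ptpn11 and Frs2, with differences of 0.56 to 0.70. In the Erg cultures 2 of the 17 passed, Gab1 at 1.06 ± 0.20 and Cblb at 0.76 ± 0.14. This list was sensitive to single arrays: the number higher was 1 and 0 without the first and second control array of day 0, and 9, with 1 lower, without either Erg array of day 0.

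Of 13 feedback inhibitors and transcriptional targets of FGF signalling, 1 was higher and 1 lower in the control day comparison, with a median of -0.15. Il17rd, a membrane inhibitor of FGF receptors, read 7.92 and 8.0 in control day 0 and 9.75 and 9.06 in control day 1, and rose by 1.45 ± 0.22 (adjusted p = 0.010, limma). Dusp6, the phosphatase that acts on ERK, read 10.88 and 10.76, then 9.53 and 9.13, and fell by 1.49 ± 0.37 (adjusted p = 0.035). In the Erg cultures Il17rd passed at 1.49 ± 0.22 (adjusted p = 0.016) and Dusp6, at -1.60 ± 0.37, did not (adjusted p = 0.051). The Sprouty and Spred inhibitors and the ETS genes Etv1, Etv4 and Etv5 did not pass in the controls, with differences of -0.47 to 0.22. Dusp4 at -0.37 ± 0.76 and Dusp5 at -1.04 ± 0.54 did not pass there either (adjusted p = 0.743 and 0.207, limma). Neither call of this list was made without either control array of day 0, and the lower one was not made without either control array of day 1. Over the arrays left out the control median ran from -0.35 to -0.05. On neither day did any gene of these lists pass between Erg and control.

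**Figure D5:**
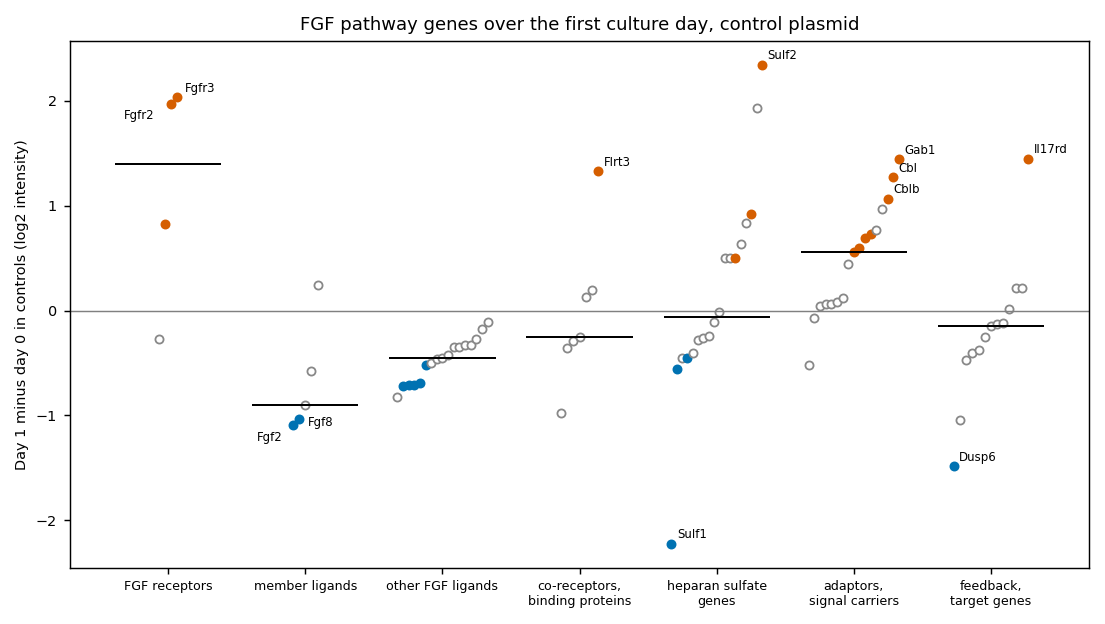
Difference in log2 intensity between day 1 and day 0 in the controls (vertical axis) for the members and 5 lists of FGF pathway genes, 1 point a gene by its brightest probe set, filled where the adjusted p was under 0.05, with lines for the list medians. Receptors and adaptors have called genes above 0 only, and the ligand groups below 0 only, with Sulf2 and Sulf1 at opposite ends.

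Markers of other cell types were counted over the same control day, beside 20.3% of all genes called (11% higher and 9.26% lower). Of 11 chondrocyte markers 1 was called higher and 0 lower, of 8 epithelial markers 0 and 1, of 6 endothelial markers 0 and 1, and of 6 leukocyte markers 0 and 2. The median differences were 0.17, -0.30, -0.41 and -0.35 in that order. The summed linear level of the leukocyte list, on the log2 scale, lay between 10.99 and 11.16 in control day 0 and between 9.27 and 9.40 in control day 1. The largest part of that sum was Cd14, a monocyte receptor, at 10.62 and 10.83 and then 8.20 and 8.61. Cd68 read 7.39 and 6.81 and then 5.27 and 5.73, while Csf1r read 7.54 and 7.93 and then 7.53 and 7.22. No leukocyte marker had a positive difference. The chondrocyte sum lay between 11.68 and 11.69 and then between 12.97 and 13.15. It was carried by Sox9, Col9a1, Col11a1 and Col2a1. Sox9 read 10.13 and 9.76 and then 11.58 and 11.19. Col9a1 read 9.40 and 9.70 and then 11.58 and 11.73, but its Erg arrays of day 0 lay far apart, at 9.95 and 7.5. Acan read 6.65 and 6.72 and then 6.37 and 6.24. Of the 11 chondrocyte markers, 6 had a positive control day difference. The epithelial sum lay between 10.00 and 10.37 and then between 10.19 and 10.24, and the endothelial sum between 8.60 and 8.88 and then between 8.42 and 8.58. The part of these in the members' day differences was not tested.

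The genes whose values over the 8 arrays were most like those of Fgfr3 1421841_at were Plekhg2, Krt15 and Trpc1, with Pearson's r of 0.998, 0.997 and 0.997, among 6162 symbols with a range of at least 1 log2 unit. For Fgfr2 1433489_s_at they were Eya4, Pid1 and Paqr8, with 0.998, 0.997 and 0.997. For Fgf2 they were Fhl2, Mt2 and Ier2, with 0.993, 0.986 and 0.982, and for Fgf8 Naa10, 1700027J07Rik and Slc29a2, with 0.985, 0.984 and 0.978. These correlations describe 8 arrays that share the split between the days, and 1286, 1088, 286 and 194 of the 6162 symbols had an r above 0.9 with Fgfr3, Fgfr2, Fgf2 and Fgf8.

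The authors' deposited table gives the same ratios for the members, 4.10 for Fgfr3 1421841_at and 3.91 for Fgfr2 1433489_s_at between the control days. It gives a q-value under 0.05 for 11 of the 18 member probe sets over the control day and for 5 over the Erg day. Among those that pass there and not with the adjusted p are both Fgf7 probe sets, with q-values of 0.0268 and 0.0245 in the authors' deposited table, and Fgfr4 1427845_at and 1427776_a_at, with 0.0190 and 0.0297. For the Erg comparisons and the interaction the authors' deposited table has 0 members under that limit. The share of all probe sets under that limit was not counted, so the 11 and 5 have no background beside them.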

How the data were processed

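The submitters' processing notes name RMA, which corrects background, normalises by quantiles and summarises probes by median polish. The deposited intensity values are linear (antilog). Which program ran RMA is open: Partek GS per the workbook's notes sheet, dChip per the series text. The deposited ratio, p-value and q-value columns are the authors' own, from limma and QVALUE per the workbook notes, and were used for comparison only. Intensities were transformed to log2 here and group means were fitted over all 8 arrays with limma 3.58.1 in R 4.3.3 (lmFit and eBayes, 4 residual and 2.78 prior degrees of freedom). All 45037 probe sets entered the Benjamini-Hochberg adjustment, without a filter, and a probe set was called at an adjusted p under 0.05. An exact permutation test of 2 arrays against 2 cannot go below 0.333. Differences carry limma's SE. Detection calls and raw images were not used here, so signal over background is unknown.

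The members and lists were chosen with earlier results of these data known. The text names every member probe set, from each list up to 4 of the called genes with the largest control day difference, and for 2 receptors and 2 ligands the 3 genes most like them. Any further gene was named after its values were seen. Fgfrl1, Hs6st1 and Spry1 were not measured under these symbols. Figures were drawn with matplotlib 3.10.9. Alternatives were an intensity trend in the variance prior, a filter on dim probe sets, cyclic loess, replicate blocks, array weights, the 4 arrays of a comparison alone, the series value table and leaving out each array.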

Additional observations from a re-analysis of the deposited data

Results flagged for a closer look

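Fgf8 1451882_a_at was picked out because both Erg arrays were below both controls on day 0 and above both controls on day 1. From day 0 to day 1 the Erg difference changed by 0.69 in log2. The test of this difference gave an adjusted p of 0.974 (limma), and the probe set was below the median of all 8 arrays.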

How the results depend on the processing

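The control day count of 7 member probe sets was 8 with an intensity trend, 5 with the filter on dim probe sets (which keeps 12 of the 18), 7 with cyclic loess or the series value table, 10 with array weights and 10 with the 4 control arrays alone. The Erg day count of 2 was 2 under these, except 0 with the 4 Erg arrays alone. The filter on dim probe sets leaves out Fgf2 and Fgf8, so its 2 Erg day calls are not the same 2. Leaving out 1 array at a time gave 1 to 11 over the control day, 1 to 6 over the Erg day, 0 to 2 for Erg against control on day 0, and 0 on day 1 and for the difference between the days. Fgfr3 1421841_at passed in all 17 alternatives over the control day and in 16 of 17 over the Erg day. Among the 17 is the series value table, which repeats the workbook's values apart from rounding. Its counts could therefore not differ from the main ones and are no separate check. The block with crossed numbers, added after seeing the data and described below, is also among the 17. Between Erg and control all other alternatives gave 0 calls. The share of all probe sets called under each alternative is not given here, so these counts describe the members only.

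Pairing by replicate number was not stated in the labels, and deviations of same-numbered arrays correlated at -0.61 between control and Erg on day 0 and 0.32 on day 1. A replicate block gave 6 calls over the control day and 3 over the Erg day. A block within each day gave 4 and 1. With the numbers crossed on day 0, an alternative added after seeing the data, it gave 10 and 5. The blocks gave 0 calls between Erg and control.

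Over the control day 1 of 300 alternative values changed sign, and over the Erg day 7 of 300. Between Erg and control 14 of 300 did on day 0 and 18 of 300 on day 1, each over 10 of the 18 probe sets. For the difference between the days 21 of 282 did, over 11 probe sets. Several alternatives change only the estimated spread, and leaving out an array outside a comparison does not move its difference. Many of these values therefore could not change sign, and the counts do not measure how stable the signs are. Without single arrays the difference over the control day ranged from -0.28 to 0.37 for Fgfr1 1425911_a_at. Over the Erg day it ranged from -0.68 to 0.23 for Fgf10 and from -0.18 to 0.19 for Fgf18. For Erg against control on day 0 it ranged from -0.50 to 0.94 for Fgfr2 1433489_s_at, -0.062 to 0.80 for Fgfr2 1420847_a_at, -0.72 to 0.24 for Fgf7 1438405_at, -1.05 to 0.25 for Fgf7 1422243_at and -0.58 to 0.33 for Fgf10. The cause of these changes was not tested. Signal over background could not be measured, which limits Fgf2, Fgf8, Fgf18 and Fgfr4 1427776_a_at most, all below the median of every array. List counts without single arrays were also added after seeing the data.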
